A study of Mus musculus with 3 samples.

Results

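Tbx21, Ifng and Il22 were examined together, as the regulator of the Th1 state and a pair of cytokine genes that share a locus. Tbx21 encodes T-bet, the T-box transcription factor that directs Th1 differentiation. Ifng encodes interferon-γ, the main Th1 cytokine and a target of T-bet. Il22 encodes IL-22, a cytokine of the IL-10 family that acts on epithelial cells and is made by Th17, Th22 and innate lymphoid cells. The genes were placed on mouse build mm9 by positions chosen for this work: Tbx21 on chromosome 11 near 96959300 to 96976600 on the minus strand, Il22 on chromosome 10 near 117642000 and Ifng near 117878000. All reads inside chromosome 11 from 96940000 to 96995000 (55 kb, the Tbx21 window) and chromosome 10 from 117600000 to 117960000 (360 kb, the Ifng to Il22 window) were counted. These windows held 2 of 15684 H3K4me3 regions and 14 of 26906 phospho-STAT3 sites found in the genome.

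The material was naive CD4 T cells sorted from mice, stimulated through CD3 and CD28 for 72 h with TGF-b at 2.5 ng/ml plus IL-6 at 10 ng/ml, and given IL-6 again for 1 h before chromatin immunoprecipitation and sequencing (ChIP-seq). Every culture held antibodies that block IFN-g, IL-4 and IL-2, the first of these being the product of Ifng. All cells carried the floxed Stat3 allele (Stat3fl/fl) and FoxP3-GFP. The STAT3-deficient cells also carried CD4-Cre, a transgene active in T cells from their development in the thymus, and the control cells, called wild-type in the labels, did not. An effect of Cre and an effect of losing STAT3 therefore cannot be told apart. H3K4me3 was profiled with 1 library for each genotype, and in wild-type cells a further library was made for phospho-STAT3 (an antibody to the serine-phosphorylated protein), and the number of mice behind each library is not given in the sources used here. H3K4me3 is a histone mark found at active and poised promoters. STAT3 is the transcription factor that IL-6 activates, and its loss is known to block Th17 differentiation.

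The H3K4me3 libraries of wild-type and STAT3-deficient cells and the phospho-STAT3 library gave 12281399, 12075963 and 10127075 reads. Outside H3K4me3 regions their density was 5.37, 5.17 and 4.39 reads per kb of mappable sequence, which is used below as background. With 1 library per group there was no test between genotypes. The intervals are exact 95% intervals that cover counting error only, and reads without molecular identifiers need not be independent molecules. Ratios are STAT3-deficient over wild-type with the median of 10971 well-covered regions set to 0 on the log2 scale. This scaling and scaling by library totals differ by 0.32 log2 units, so both are given where the choice matters for spans, regions and sites. The bins of 1 kb and the other processing alternatives are given with the first scaling alone. Library totals would raise each bin ratio by that amount. Stat3 and the T cell, B cell, myeloid, Th2 and regulatory T cell marker genes could not be placed on mm9 from the table at hand (GRCm38.p6), so neither the deletion nor the cell type was checked at named genes. Stretches of 2 kb or more that lacked any STAT3-deficient read were ranked by the smaller of both wild-type counts. The first was 3681 bp long on chromosome 11, 3.78 Mb from the Tbx21 start. It held 27 wild-type H3K4me3 and 74 phospho-STAT3 reads, and a stretch on chromosome 6 reached the same smaller count.

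The RefSeq promoter sequences of the 3 genes (250 bases before to 50 after the start, build GRCm38.p6) are shown because H3K4me3 tends to form at promoters rich in CpG dinucleotides. Capitals mark the CpG dinucleotides. The first promoter lies at chr11:97115282-97115581 on the minus strand, the second at chr10:118440796-118441095 and the third at chr10:118204714-118205013, both on the plus strand.
Tbx21: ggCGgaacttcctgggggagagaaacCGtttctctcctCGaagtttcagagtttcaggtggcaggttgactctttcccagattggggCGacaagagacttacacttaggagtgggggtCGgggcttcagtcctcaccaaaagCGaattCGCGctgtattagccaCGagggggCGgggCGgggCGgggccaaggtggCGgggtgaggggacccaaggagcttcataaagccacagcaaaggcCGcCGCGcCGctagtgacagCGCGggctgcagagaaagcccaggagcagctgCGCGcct
Ifng: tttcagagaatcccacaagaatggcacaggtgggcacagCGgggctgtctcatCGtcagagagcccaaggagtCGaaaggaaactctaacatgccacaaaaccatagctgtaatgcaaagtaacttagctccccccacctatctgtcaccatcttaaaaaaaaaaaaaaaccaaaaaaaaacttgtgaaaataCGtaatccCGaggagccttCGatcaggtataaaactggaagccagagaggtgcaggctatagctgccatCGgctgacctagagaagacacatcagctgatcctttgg
Il22: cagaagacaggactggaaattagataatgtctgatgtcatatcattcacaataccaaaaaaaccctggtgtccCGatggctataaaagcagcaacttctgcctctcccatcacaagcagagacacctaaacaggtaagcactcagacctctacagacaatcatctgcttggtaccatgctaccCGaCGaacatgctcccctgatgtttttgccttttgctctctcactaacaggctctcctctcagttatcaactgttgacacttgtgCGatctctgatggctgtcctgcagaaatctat

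The Tbx21 promoter held 21 CpG dinucleotides, against 7 in the Ifng promoter and 4 in the Il22 promoter. The median of 32851 promoters was 7, and 75.2% of them had fewer than Tbx21. The STAT motif TTCNNNGAA, read on both strands, occurred in the Ifng window alone of the 3, as 1 match at 249 to 241 bases before the start (match in capitals: tTTCAGAGAAtcccacaa). This motif is present in 8.30% of all promoters. Neither the T-box motif AGGTGTGA (1.28% of all promoters) nor the AP-1 motif TGANTCA (7.81%) was found in any of the 3 windows. Of 21 further genes of the Th1 and IL-22 pathways, 12 had an entry, with 16 promoters between them. The STAT motif was in 2 of the 16 promoters. These were that of Il12rb2, a subunit of the IL-12 receptor, and 1 promoter of Il18r1, a subunit of the IL-18 receptor. The other promoters listed for Il18r1 lacked it. The AP-1 motif was in 1 of the 16, that of Il22ra1, a subunit of the IL-22 receptor, and the T-box motif in 0. A match in 300 bases is a description of these letters only, and the reads of these genes were not counted.

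H3K4me3 at Tbx21 was weak in wild-type cells and higher in STAT3-deficient cells, and the difference lay in the first few kb of the gene. Within 2 kb on either side of the start there were 49 wild-type reads (interval 36.3 to 64.8) and 113 STAT3-deficient reads (93.1 to 136). Background for this length was 21.5 and 20.7 reads, so the wild-type count was 2.28 times and the STAT3-deficient count 5.46 times background. The counting intervals do not overlap. A larger share of cells carrying the mark and more of it per cell cannot be told apart in such pools. After scaling the difference was 1.88-fold (1.33 to 2.69), a log2 ratio of 0.91 (0.42 to 1.43). The size rule used for a differing region asks for at least 2-fold with an interval that excludes no change, and the start window missed it with this scaling. By library totals it passed, at 2.35-fold (1.66 to 3.35), and it also passed with mismatched reads left out, at a log2 ratio of 1.08. Of 18550 tiles of 4 kb that hold an H3K4me3 region and at least 50 reads, 0.571% were higher by the same rule with the main scaling and 1.72% by library totals. The ratio at the Tbx21 start was exceeded in 0.706% of these tiles.

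**Figure D1:**
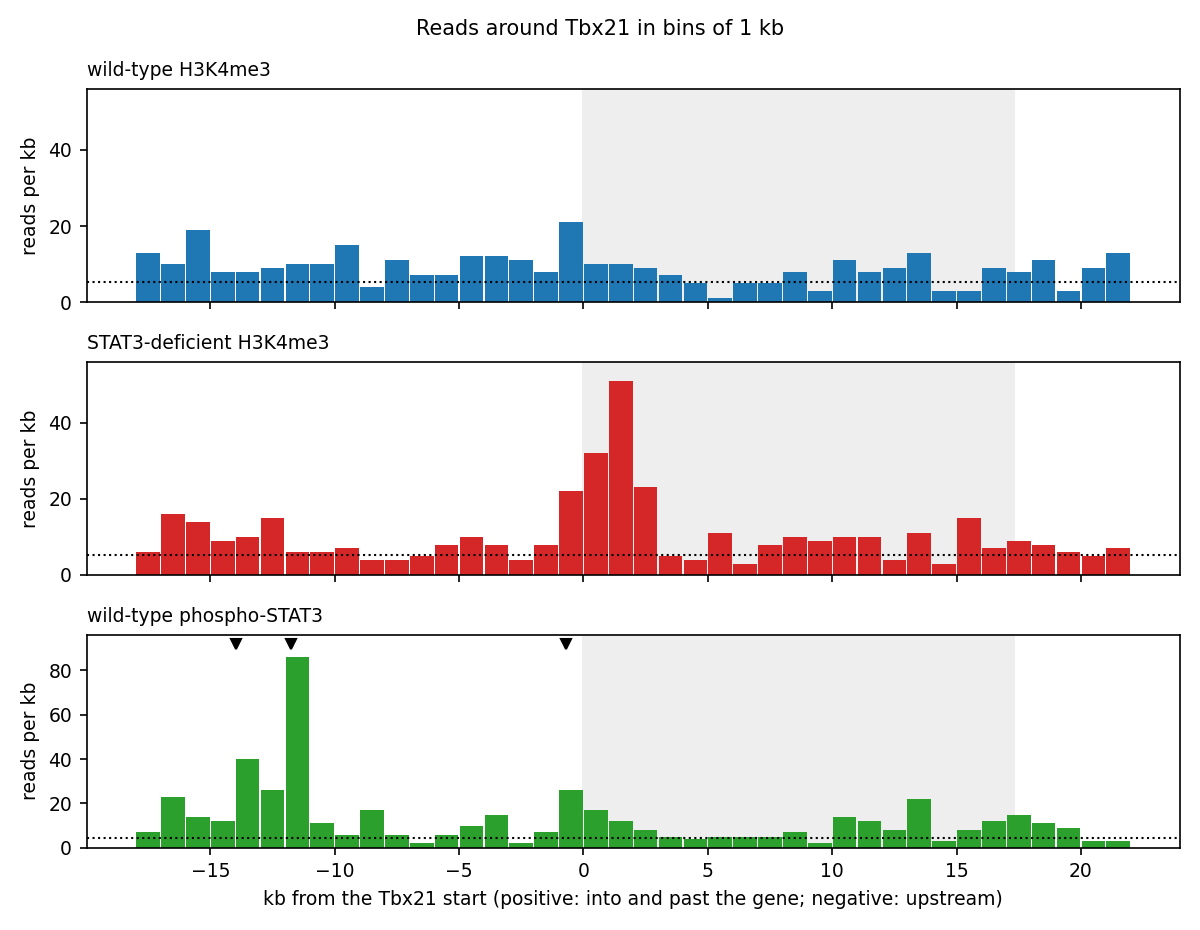
Reads per bin of 1 kb around Tbx21 in the 3 libraries, against distance from the gene's start in kb; grey shading marks the gene, dotted lines the background of each library, and triangles the phospho-STAT3 sites in view. The STAT3-deficient H3K4me3 library rises to 51 reads in the second kb of the gene, where the wild-type library has 10, and the highest phospho-STAT3 bin, with 86 reads, lies 11 to 12 kb upstream.

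Single bins of 1 kb show where the difference sat. In the first kb of the gene there were 10 wild-type and 32 STAT3-deficient reads, in the second 10 and 51, and in the third 9 and 23. The second kb had a log2 ratio of 2.06 (1.06 to 3.20). The third kb had 1.06 (-0.11 to 2.36), an interval that includes no change with the main scaling. In the fourth kb the counts were 7 and 5, so the run of raised bins ended about 3 kb into the gene. Outside the first 4 kb of the gene 36 bins were counted. Some of 36 such intervals can exclude 0 by counting error alone, and the share over the genome was not counted. Single bins among them are therefore only described. The bins from 5 to 6 kb (1 and 11 reads) and from 15 to 16 kb (3 and 15 reads) had intervals above 0. The bin from 10 to 9 kb upstream (15 and 7 reads) had an interval below 0 with the main scaling, from -2.93 to -0.01. Library totals raise each ratio by 0.32. The limit nearest 0 then changes side for this bin and for the third kb of the gene. In the kb just upstream of the start the counts were close, with 21 and 22 reads and a log2 ratio of -0.23 (-1.16 to 0.71).

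Taken over the first 4 kb of the gene, a span chosen after these bins were seen, the wild-type count was 36 and the STAT3-deficient count 111, 2.51-fold higher (1.71 to 3.77) after scaling and 3.14-fold (2.14 to 4.70) by library totals. This span passes the size rule under both scalings, but its choice followed the counts. In wild-type cells it held 1.67 times background, and 90.6% of 4 kb tiles outside H3K4me3 regions held fewer reads. The whole Tbx21 window stood at 1.64 times background in wild-type cells. The 36 bins of 1 kb around the span had a wild-type median of 9 reads, and the span held 9 per kb. Wild-type H3K4me3 in the span was thus not above that of its surroundings. In the 4 kb upstream of the start, 52 and 42 reads gave a ratio of -0.60 (-1.22 to 0.01) on the log2 scale. In the rest of the gene, from 4 kb to its end, 85 and 107 reads gave 0.04 (-0.39 to 0.47). Farther upstream, from 4 kb to the end of the window, 144 and 123 reads gave -0.52 (-0.88 to -0.16), and -0.20 (-0.56 to 0.15) by library totals. The raised STAT3-deficient signal was therefore seen downstream of the start and not upstream of it.

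**Figure D2:**
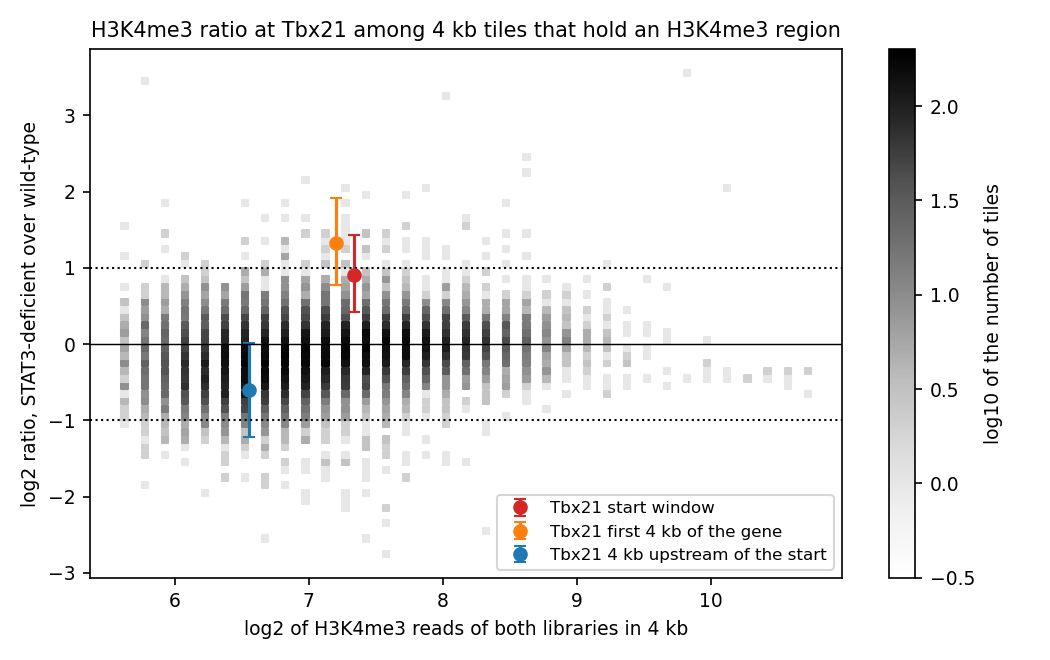
Log2 ratio of H3K4me3 (STAT3-deficient over wild-type, y axis) against the log2 of the reads of both libraries (x axis) for 4 kb tiles that hold an H3K4me3 region (grey squares, darker where more tiles fall) and for 3 spans of 4 kb at Tbx21 (points with exact 95% intervals); dotted lines mark 2-fold. The Tbx21 start window, at 0.91, and the first 4 kb of the gene, at 1.33, lie above most tiles, and the 4 kb upstream of the start, at -0.60, lie below 0.

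The 2 H3K4me3 regions of the Tbx21 window were both small. The region at the start, from 96976400 to 96976999, had 14 reads in wild-type and 28 in STAT3-deficient cells, for a log2 ratio of 0.71 (-0.27 to 1.75). By library totals its ratio was 1.02 (0.05 to 2.06), so whether this region passed the size rule depended on the scaling. The other, from 96974800 to 96975199, lay 1401 to 1800 bp into the gene; its counts were 6 and 29, with a log2 ratio of 1.98 (0.69 to 3.54). Regions were found on the reads of both libraries pooled. The wild-type library alone gave 0 regions in the Tbx21 and Ifng to Il22 windows, and the STAT3-deficient library alone gave 2. A higher STAT3-deficient count is therefore favoured by how the regions were found, and their ratios are given as a description. Regions of each library alone were not counted over the genome, so 0 against 2 has no reference. Over the genome 7.14% of wild-type and 8.84% of STAT3-deficient H3K4me3 reads lay in the pooled regions. The summed reads of the 2 Tbx21 regions, 42 and 35, stayed under the minimum of 50 for a well-covered region, and the median over all regions was 91. Over the whole 55 kb window the counts were 485 and 545, a log2 ratio of -0.13 (-0.30 to 0.05), or 0.19 (0.01 to 0.37) by library totals, both below the ratio at the start.

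H3K4me3 at the starts of Ifng and Il22 was not above background in either genotype. Within 2 kb of the Ifng start there were 22 wild-type reads (13.8 to 33.3) and 19 STAT3-deficient reads (11.4 to 29.7), 1.02 and 0.918 times background. The log2 ratio of -0.51 (-1.47 to 0.45) was not distinguishable from no difference. Within 2 kb of the Il22 start there were 13 (6.92 to 22.2) and 9 (4.12 to 17.1) reads, 0.605 and 0.435 times background, with a log2 ratio of -0.82 (-2.23 to 0.51). The STAT3-deficient interval at Il22 lay wholly under its background of 20.7 reads. No H3K4me3 region was found anywhere in the Ifng to Il22 window. The highest bin of 1 kb held 17 reads in either library, and the nearest well-covered region lay 62.4 kb from the Il22 start, outside the window on the side away from Ifng. Of the 3 genes, Tbx21 alone had H3K4me3 above background at its start, in both genotypes, under these intervals. The whole Tbx21 window was itself at 1.64 times background in wild-type and 1.92 times in STAT3-deficient cells.

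**Figure D3:**
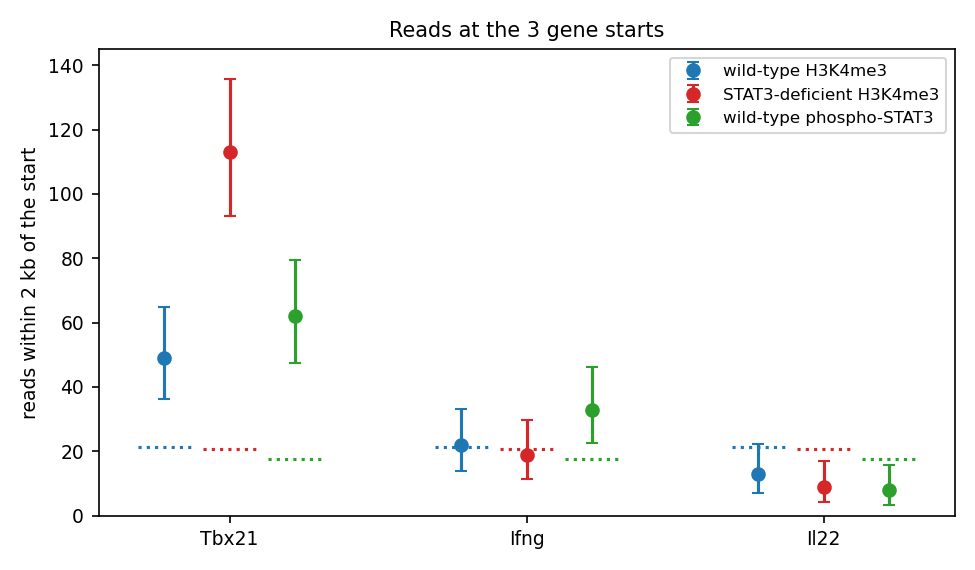
Reads within 2 kb of the start of each gene (y axis) in the 3 libraries, with exact 95% Poisson intervals; short dotted lines give each library's background for this length. At Tbx21 the 113 STAT3-deficient H3K4me3 reads stand above the 49 wild-type reads, while Ifng (22 and 19) and Il22 (13 and 9) stay at or under the background of about 21 reads.

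The Ifng to Il22 window was unevenly covered. It held 11 stretches of at least 2 kb without a read in any library, 93.2 kb in all or 25.9% of the window, the longest 31.3 kb. In the GRCm38.p6 table the only protein-coding gene between Il22 and Ifng is Iltifb, a near copy of Il22. Short reads from sequence that the copies share cannot be told apart, and how the authors' alignment treated such reads is not given in the sources used here. Whether this lowered the counts at Il22 was not tested. Phospho-STAT3 reads were low there too, 8 within 2 kb of the start or 0.456 times background. In the remainder of the window, wild-type and STAT3-deficient H3K4me3 stood at 4.72 and 4.68 reads per kb. The summed counts of 1259 and 1249 gave a log2 ratio of -0.31 (-0.42 to -0.19), which became 0.013 (-0.10 to 0.13) by library totals, so no direction is read from it.

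The stretch upstream of Il22 was an exception within that window. Over the 40 kb before the Il22 start window the wild-type count was 218 (190 to 249) and the STAT3-deficient count 160 (136 to 187), which gives a log2 ratio of -0.74 (-1.04 to -0.44). By library totals it was -0.42 (-0.73 to -0.12), 1.34-fold lower. Both values are low in absolute terms, 1.01 and 0.774 times background, and no region was found there. Tiles of 40 kb with at least 200 reads had a median log2 ratio of -0.33 with the same scaling, and 0.615% of 46213 such tiles were lower. By steps of 10 kb from the far end, the counts were 78 and 61, 64 and 45, 50 and 30, and 26 and 24. The wild-type count was the higher in each, but the last step had a log2 ratio of -0.41 (-1.27 to 0.45). By library totals only the third step had an interval that excluded no change, at -0.71 (-1.42 to -0.03). The span was chosen after its counts were seen, so its steps are no separate support.

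Phospho-STAT3 was present around Tbx21, at 4 sites in 55 kb. That is 7.27 sites per 100 kb, against 1.02 over the genome, and 3.20% of tiles of 55 kb held at least as many. Those tiles cover the whole genome, had a median of 0 sites and were not matched for genes or coverage. In this window wild-type and STAT3-deficient H3K4me3 reads also stood at 1.64 and 1.92 times background. The strongest site, from 96988100 to 96988599, lay 11750 bp upstream of the start. Its highest window of 200 bp held 56 reads against 4.82 expected from the surrounding 10 kb, 11.6-fold, and 95.6% of all sites had a smaller excess. A neighbour 13950 bp upstream, from 96990350 to 96990699, held 33 reads at 7.14-fold. Both belonged to the strong sites, the top 25% by excess over the local expectation (at least 26.1 reads).

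A site close to the start, from 96977200 to 96977449, had its centre 700 bp upstream and was weaker. It held 18 reads, 8.18-fold over 2.20 expected, with 10 on the plus and 8 on the minus strand, and 32.0% of sites had a smaller excess. At this height a window needed 16 reads to be accepted, so the site was just inside the limit. It lies outside the promoter bases shown above. The fourth site, from 96945100 to 96945499, lay 31350 bp past the start, beyond the far end of the gene, with 25 reads at 12.9-fold. The gene span itself held no site.

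**Figure D4:**
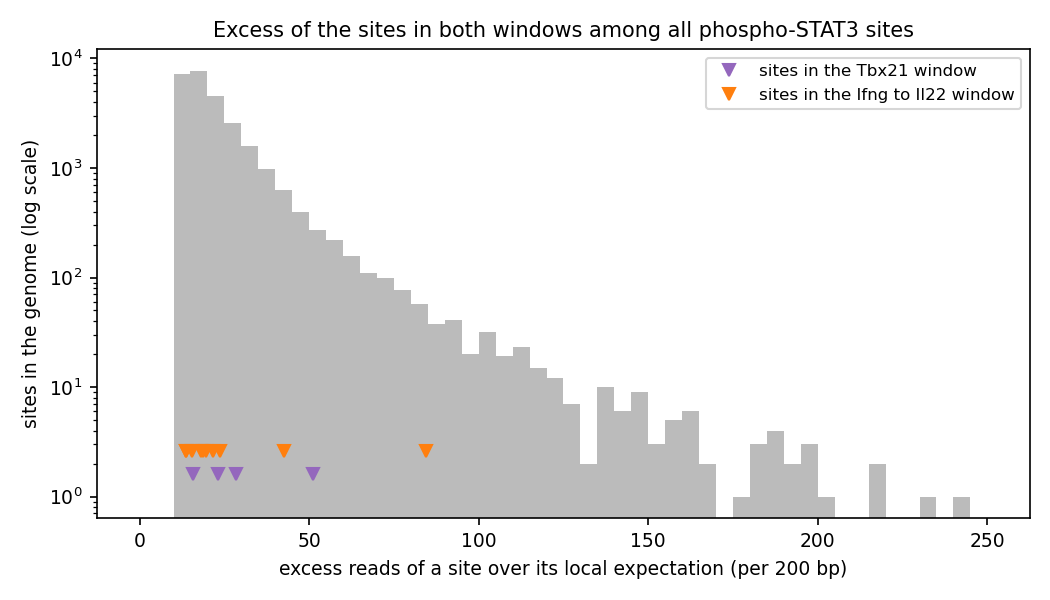
Number of phospho-STAT3 sites in the genome (y axis, log scale) by their excess reads over the local expectation (x axis, reads per 200 bp); triangles mark the 4 sites of the Tbx21 window and the 10 of the Ifng to Il22 window, and their height has no meaning. The largest excess in the Ifng to Il22 window is 84.5 reads and the largest in the Tbx21 window 51.2 reads, both in the upper tail, while most of the others lie where sites are most numerous.

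The Ifng to Il22 window held 10 sites, and the strongest were upstream of Il22. The site from 117609350 to 117609899, 32400 bp before the Il22 start, held 90 reads in its highest window, 16.5-fold over the local expectation, and ranked 273 of 26906 sites by excess. A second site at 26050 bp, from 117615700 to 117616099, held 45 reads at 18.6-fold, and the next at 15800 bp, from 117626050 to 117626399, held 23 at 18.5-fold. The first 2 were strong sites, and the last fell short of that limit. They lie in the 40 kb stretch with the lower STAT3-deficient H3K4me3 counts, on the side of the gene Mdm1 in the GRCm38.p6 table.

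Around Ifng the sites were distal and weaker. Of the other 7 sites, 6 lay downstream of the Ifng start, from 18000 to 66850 bp, with 15 to 25 reads and 10.7-fold to 18.7-fold over the local expectation. The site at 18000 bp, from 117895800 to 117896199, was the largest of these with 25 reads. The next largest, from 117923750 to 117924099 and 45950 bp downstream, held 21 reads at 14.2-fold, and 53.4% of all sites had a smaller excess. The remaining one lay 70350 bp upstream of Ifng, from 117807500 to 117807849, with 19 reads at 18.6-fold. None of the 7 was strong. In all, 4 of the 14 sites of both windows were strong, 2 in each, a share near the 25% that defines them.

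No site lay within 2 kb of the start of Ifng or Il22. The highest phospho-STAT3 window near the Ifng start held 10 reads, 1100 bp into the gene, where 12 were needed. Near the Il22 start it held 2. All phospho-STAT3 reads within 2 kb of the Ifng start came to 33 (22.7 to 46.3), 1.88 times background. Background here is a mean density, and 92.2% of 4 kb tiles outside H3K4me3 regions held fewer phospho-STAT3 reads. The count was thus above that mean, within the range of such tiles, and short of a site. The promoter match to the STAT motif before Ifng thus had no site over it in these data. At 2.78 sites per 100 kb, the Ifng to Il22 window was less dense than the Tbx21 window, and 13.5% of tiles of 360 kb held at least 10 sites.

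**Figure D5:**
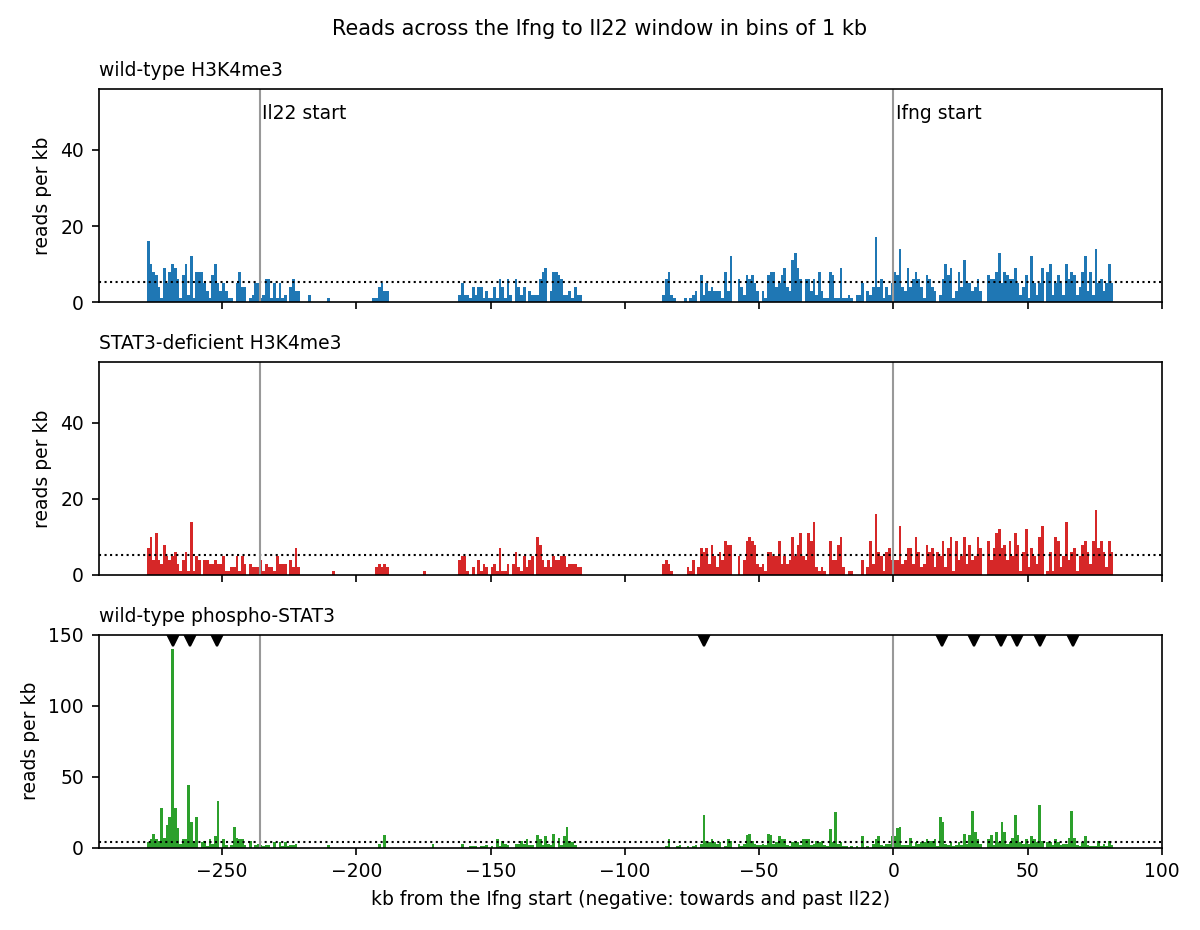
Reads per bin of 1 kb across the Ifng to Il22 window in the 3 libraries, against distance from the Ifng start in kb; grey lines mark both starts, dotted lines the background, and triangles the 10 phospho-STAT3 sites. Both H3K4me3 libraries stay at or under 17 reads per bin, stretches without reads lie between the genes, and the tallest phospho-STAT3 bin, with 140 reads, lies upstream of Il22.

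H3K4me3 counts within 1 kb of the sites were above background at all 4 sites of the Tbx21 window. In the Ifng to Il22 window they lay on both sides of it. In the Tbx21 window it ranged from 15 to 31 wild-type and from 19 to 42 STAT3-deficient reads per site, where 10.7 and 10.3 were background. All 4 ratios had intervals that included no difference, and summed over the 4 sites the counts were 85 and 106, a log2 ratio of 0.02 (-0.40 to 0.45). At the site 700 bp upstream of the Tbx21 start the counts were 31 and 42, with a ratio of 0.14 (-0.56 to 0.86). In the Ifng to Il22 window the range was 7 to 21 and 5 to 23 reads, and the sums were 133 and 138, a log2 ratio of -0.24 (-0.59 to 0.11).

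At 1 of the 14 sites, the strongest one upstream of Il22, H3K4me3 was lower by the size rule. The counts were 21 and 11, a log2 ratio of -1.23 (-2.43 to -0.11), which by library totals was -0.91 (-2.11 to 0.21). Over all sites 5.33% passed the rule in either direction, so 1 of 14 is near that share. Of the 14 sites 0 were also found as peaks in both H3K4me3 libraries, against 12.8% of all sites, and 1 lay within 2 kb of an H3K4me3 region, the site next to the Tbx21 start, against 33.0% of all sites. An input library was not analysed here, and the counts of both H3K4me3 libraries in the highest 200 bp of each site, at most 7, are the only other reads at the same positions.

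Bases that differ from the reference were counted because Tbx21 lies on the same chromosome as Stat3 in the GRCm38.p6 table. In the Tbx21 window 6.19% of wild-type H3K4me3 reads carried a mismatch (Wilson interval 4.37 to 8.69), against 3.12% of STAT3-deficient reads (1.96 to 4.94) and 4.28% of phospho-STAT3 reads (2.96 to 6.15). The intervals overlap. No position in that window had at least 3 mismatched reads from different offsets making up 30% of its reads. Between 96 and 98 Mb of chromosome 11 there were 23 such positions, with non-reference shares of 94.7%, 88.5% and 89.3% in the same order, over 38, 26 and 28 covering reads. These positions were picked for their mismatched reads, so high shares follow in part from that choice. With mismatched reads left out, the log2 ratio at the Tbx21 start was 1.08, against 0.91 with all reads.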

How the data were processed

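Each deposited file lists the aligned reads of 1 library by position and strand. The submitters' processing notes name build mm9 and SICER, an island caller; the aligner is not given in the sources used here. Reads were 25 bp long, and since none shared its position and strand with another, the authors deposited them without duplicates.

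Reads were moved 75 bp towards the fragment centre and counted here. H3K4me3 regions were windows of 200 bp with at least 12 reads of both libraries pooled (Poisson p of 1e-05, mappable share 0.8), joined across up to 600 bp, with at least 2 windows; 50 reads in both libraries made a region well covered. Phospho-STAT3 sites were 200 bp windows, moved by 50 bp, that had 10 reads or more, both strands and Poisson p under 1e-08 against the larger of genome-wide and 10 kb local density. The 5 largest sites per window were to be given in full. The size rule and the site caller were tested on simulated data. For the rule these were counts drawn for well-covered regions, which hold more reads than the Tbx21 regions. The members and lists were chosen with earlier results of these data known. The gene positions are approximate and come from the rule that defined the windows. Promoters are RefSeq sequences of GRCm38.p6. Alternatives were scaling by totals, subtracted background, unmoved reads, reads without mismatch, equal depth, other windows and other thresholds. Python 3.11.15, numpy 2.4.6, scipy 1.17.1 and pandas 2.3.3 were used.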

Additional observations from a re-analysis of the deposited data

How the results depend on the processing

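No paired analysis was possible because each group had 1 library. Scaling by library totals moved the log2 ratio of the Tbx21 window to 0.19 and of the stretch upstream of Il22 to -0.42, and turned that of the Ifng to Il22 window to 0.013. Subtracting background moved the Tbx21 start window to 1.45, the first 4 kb of the gene to 2.34 and the Tbx21 window to 0.17. It gave no value for the Ifng and Il22 start windows, the Ifng to Il22 window and the stretch upstream of Il22, where a count fell to 0 or below. With 5 kb on each side the Tbx21 start gave 0.38, still above 0 (0.01 to 0.74). With 1 kb on each side it gave 0.51 (-0.16 to 1.19). The number of H3K4me3 regions in both windows fell from 2 to 0 on the wild-type library alone and at a threshold of 1e-08, and was 5 at 1e-03. At a site threshold of 1e-05 the Ifng to Il22 window held 16 sites. The other alternatives run kept each log2 ratio within its counting interval and each count within 1.5 times, and the direction at the Tbx21 start and inside the gene was the same in all that were run. The runs for the first 4 kb of Tbx21 and for the stretch upstream of Il22 were added after the data were seen.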
